A study of Homo sapiens with 4 samples.

Results

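To investigate how the extracellular matrix and its receptors were represented in the transcriptome of mercury-treated cells, the collagen, laminin and integrin genes and FN1 were taken from the table of raw counts. Members were the protein-coding genes whose symbols follow the pattern of collagen chains (COL, a number, A, a number), laminin chains (LAMA, LAMB or LAMC and a number), integrin alpha chains (ITGA) and integrin beta chains (ITGB1 to ITGB8), plus FN1. Described here are 82 of 19926 protein-coding genes, namely 44 collagen, 11 laminin, 18 integrin alpha and 8 integrin beta genes and 1 fibronectin gene. The rule used gene names and no measured value.

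The samples were H1299 cells, an established line from a human non-small-cell lung carcinoma, sequenced as poly-A RNA after 48 h. One group received 5 μM HgCl2, a soluble salt of inorganic mercury, and the other received the solvent, 0.6% EtOH, and both groups have the same cell line and the same time in common. Each group has 2 columns of values, called replicates 1 and 2. A treatment note among the labels names 5 μM for all 4 samples. The paper describes controls with solvent alone, and its description is used here.

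Collagens are triple-helical proteins that form fibrils or, as type IV, the network of basement membranes. Laminins are heterotrimers of an alpha, a beta and a gamma chain that form a second network of the basement membrane, and fibronectin is a soluble and fibrillar glycoprotein that cells assemble around themselves. Integrins are receptors made of an alpha and a beta chain that span the plasma membrane and bind these ligands outside the cell and the actin cytoskeleton, through adaptors, inside it. Lung carcinoma lines differ in the set of integrins they carry, which bears on how they attach and spread.

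In these libraries the integrin chain ITGB5 was lower in HgCl2 cells, while LAMC1 and ITGA4, the members with the most counts, differed little. Among collagens at low counts, the basement membrane chain COL4A3 was higher, and it entered the comparison only through its HgCl2 level, while COL4A4, COL1A1 and COL12A1 were lower in a fit without a limit on low values. That fit called 3 of the 60 member transcripts under the limit lower, against 2.94% of all transcripts under it, and the intervals of these 3 ended close to 0. Most of the other differences among members were in transcripts whose countable part lies in an intron, among them transcripts of ITGA6, ITGA4, ITGA1 and LAMB2. Member transcripts were called higher and lower in nearly equal number, and the families did not share a direction.

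The total of counts per column was between 4720978 and 5053120. Over the whole table, 33148 and 33106 transcripts had a count in EtOH and 25432 and 25531 in HgCl2. Fewer transcripts at low counts were thus seen in HgCl2, and the part of this in members lower at low counts was not tested. Within a group, the columns differed from each other by less than sampling noise. The variance of their difference was 0.505 times (95% interval 0.492 to 0.517) that of independent counts in EtOH over 12382 transcripts and 0.516 times (0.503 to 0.530) in HgCl2 over 10611 transcripts. The paper describes its libraries as coming from independent biological replicates. Because of these variances, each group was here counted as 1 sample instead, with the mean of its columns as value. Every difference below is between 1 sample and 1 sample without a replicate check, and no p-value is given. Columns that do not overlap between the groups therefore add no support to a difference. Of the marker genes of lung carcinoma epithelium, KRT19, EPCAM and CDH1 (3 of 6) had 0 counts, and the sum over the list was 91 and 96 counts in EtOH and 25 and 37 in HgCl2. The defining markers of leukocytes were at 0 (4 of 4), those of endothelium summed to between 1 and 5 counts in every column, and those of fibroblasts to 22 and 25 in EtOH and 4 and 1 in HgCl2, with LUM and THY1 at 0. Of the 4 markers of mesenchymal-like carcinoma lines all had counts, with sums of 35339 and 35752 in EtOH and 94588 and 94324 in HgCl2. HMGA2 alone held means of 34906 in EtOH and 93946 in HgCl2, so the higher sum is that of 1 gene. The counts of the other markers of this list together were not higher in HgCl2. The part of these marker differences in the results below was not tested. In bulk RNA, fewer cells that use a gene and less RNA per cell cannot be told apart.

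To read the counts, the way they were made has to be kept in view. The table lists transcripts and not genes, and a base that several listed transcripts share gave few or no counts, so that the counts of a transcript come from the bases that no other listed transcript covers, called here bases of its own. Own bases were taken from a later annotation release than the authors counted with, and transcripts whose models changed between the releases were not traced. Among the members, 1 transcript without any such base had a count. Of the 82 member genes, 38 had a count and 44 had 0 counts in all columns. The members have 780 listed transcripts, of which 92 had a count. Genes at 0 included 29 collagens, 5 laminins, 7 integrin alpha chains and 3 integrin beta chains.

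Among the genes at 0 were COL4A1 and COL4A2, the common chains of basement membrane collagen, COL1A2 of type I collagen, COL5A1, COL6A1, COL6A2, COL6A3 and COL18A1, the laminin chains LAMA1, LAMA3, LAMA4, LAMB4 and LAMC3, and the receptor chains ITGA8, ITGA9, ITGA11, ITGB2, ITGB4 and ITGB7. A value of 0 does not show that a gene was silent. Of the canonical transcript of COL4A1 (the transcript the annotation marks as representative), 1488 of 6540 bases were its own, of that of ITGB4 210 of 5896 and of that of LAMA3 145 of 10651. Of the 44 genes at 0, 25 had a canonical transcript with at least 150 bases of its own, and 8 had none with any. The longest unshared stretches without a count were in 6 genes whose canonical transcript had at least 50% of its bases to itself, where a count of 0 in a column allows up to 3. These were COL5A3 with 5685 of 6207 bases, COL6A6 with 4414 of 8689, ITGA8 with 6121 of 6547, ITGA9 with 4228 of 7860, ITGAD with 2550 of 3889 and LAMC3 with 3996 of 7455. In the other direction, the canonical transcripts of FN1, ITGB1, ITGA3, LAMB1 and LAMA2 had no base of their own, so that these genes were seen only through minor transcripts.

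**Figure D1:**
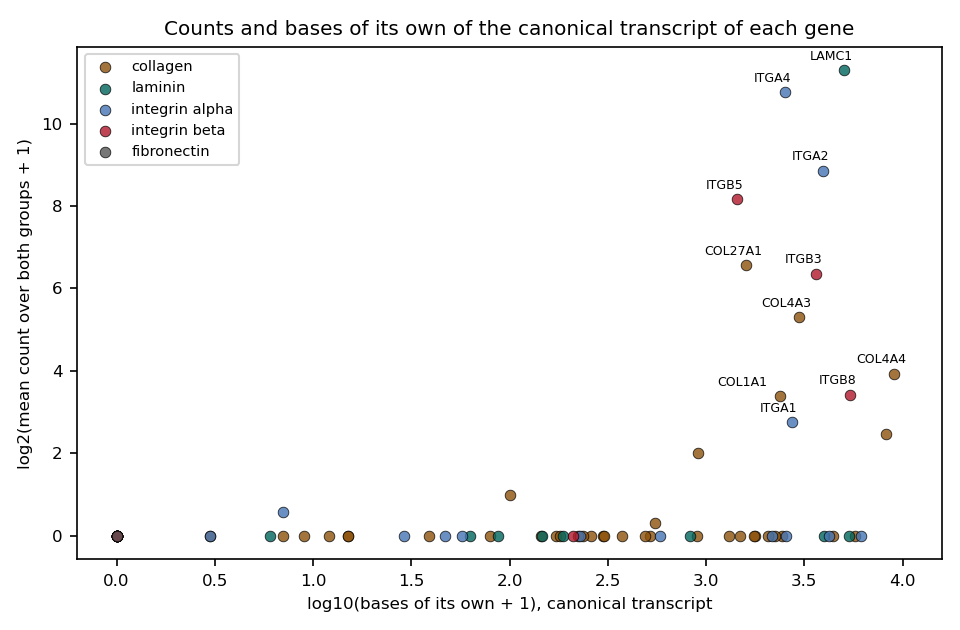
Each point is the canonical transcript of a member gene, placed by the bases that no other listed transcript covers (log10 of the number plus 1) and by its mean count over both groups (log2 of the count plus 1), coloured by family. The transcripts with more than a few counts, such as LAMC1, ITGA4, ITGA2 and ITGB5, lie at the right, while many transcripts with as many bases of their own lie at 0.

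To compare HgCl2 with EtOH, 32 transcripts of 19 member genes could be used, those with a mean FPKM (fragments per kilobase of transcript, scaled to library size) above 1 in at least one group. The remaining 19 genes with a count are described after the families. A transcript was called higher or lower where the log2 fold change of the edgeR fit was at least 1 in size and the exact 95% counting interval of that fold change lay wholly on the same side of 0. All such intervals cover counting error only. Of the 32 transcripts, 6 were called higher (18.8%) and 5 lower (15.6%), against 15.5% higher and 17.0% lower of all 17547 transcripts tested, so the share of calls among members was near that of the background. The median log2 fold change of the members was -0.01, against -0.21 for all tested transcripts. Setting the transcripts at 0 in one group to their bound could not move this median, since they stay below it.

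The FPKM limit bears on these counts, since a transcript that passed it only through the group where it is high had to differ. Of the 32 transcripts, 20 were above it in both groups, 5 were above it only in EtOH and 7 only in HgCl2. Of those that passed in both groups, 3 were called higher and 3 lower (15% each), against 13.8% higher and 11.1% lower of 10750 such transcripts. The other 5 calls, on COL4A3 ENST00000396578, ITGA1 ENST00000504669 and ITGB5 ENST00000476988 (higher) and on ITGA4 ENST00000476089 and ITGAV ENST00000430709 (lower), were on transcripts that passed through 1 group, and are given as values. Of members that passed in HgCl2 alone 42.9% were called higher, against 57.5% of all 2158 such transcripts. Of those that passed in EtOH alone 40% were called lower, against 38.5% of 4639. The split by group was chosen after the data were seen.

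Low counts carry most of the calls in the whole table, so the members were read in 2 ranges of mean count, a split chosen after the data were seen. Among the 9 member transcripts that averaged 50 counts or more, 1 was called higher (11.1%) and 2 lower (22.2%). The background there was 11.7% higher and 6.17% lower of 5524 transcripts. Among the 23 with a mean under 50 counts, 5 were called higher (21.7%) and 3 lower (13.0%), against 17.3% higher and 22.0% lower of 12023 transcripts. With so few members per range, a difference of 1 or 2 calls separates these shares from the background.

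**Figure D2:**
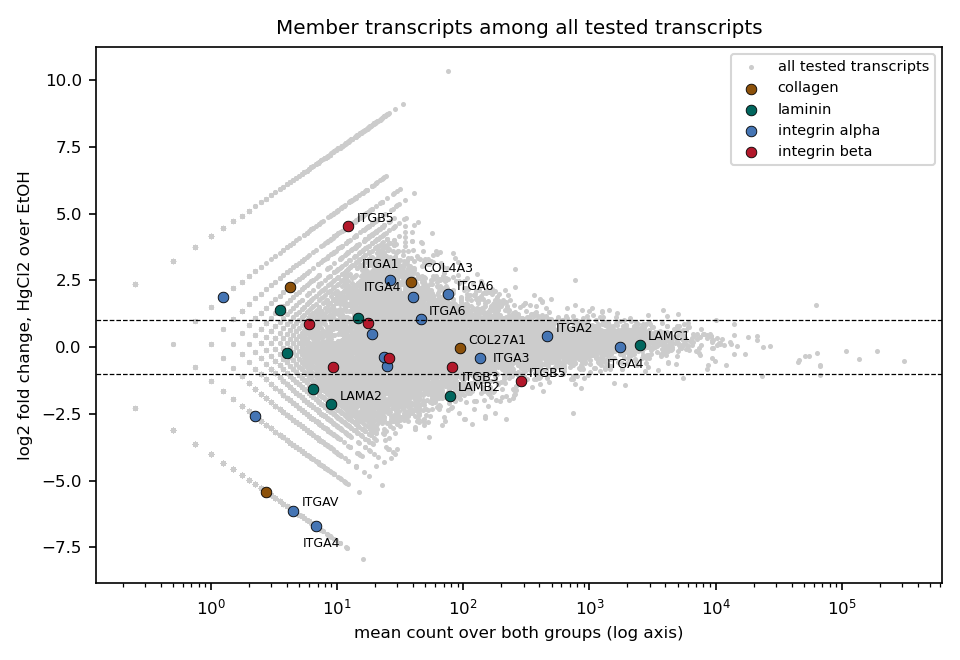
Log2 fold change of HgCl2 over EtOH against the mean count over both groups (log axis) for all 17547 tested transcripts in grey and the 32 member transcripts in colour by family, with dashed lines at 1 and -1. ITGB5 is the member beyond the dashed lines at the highest count, and the other called members lie among many grey points at lower counts.

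The laminin family was, with the integrin alpha chains, among the families with the most counts. Its sum was 2706 and 2743 counts in EtOH and 2563 and 2504 in HgCl2, and LAMC1 made up nearly all of it. LAMC1 encodes the gamma 1 chain, shared by most laminins. Its canonical transcript ENST00000258341 (chr1:183023420-183145592, plus strand, GRCh38) had 2540 and 2560 counts in EtOH and 2496 and 2431 in HgCl2. On the deposited FPKM scale the mean level was 58.5 in EtOH and 70.7 in HgCl2. After TMM normalization the log2 fold change was 0.09 (95% interval 0.01 to 0.17), so that the best counted member differed by little. Of its 7929 bases, 4999 were its own, with 2805 in the 3′ UTR, 1897 in the coding sequence and 297 in the 5′ UTR. The minor LAMC1 transcript ENST00000495918 had between 1 and 6 counts in each column and was not called.

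The beta chains LAMB1, LAMB2 and LAMB3, which join an alpha and a gamma chain in the trimer, were seen through minor transcripts. The best counted was a transcript of LAMB2, ENST00000498377, which the annotation classes as a retained intron. It had 117 and 132 counts in EtOH and 31 and 33 in HgCl2, a log2 fold change of -1.81 (-2.43 to -1.25). All 123 bases of its own are the last bases of intron 27 of LAMB2 (chr3:49122371-49122493, minus strand, GRCh38), and they are shown because they are the part of this transcript that no other listed transcript covers. Capitals mark the final bases of the intron, next to the following exon.
LAMB2 ENST00000498377: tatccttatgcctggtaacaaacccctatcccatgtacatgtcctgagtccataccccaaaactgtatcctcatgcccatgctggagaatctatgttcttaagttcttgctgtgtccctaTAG

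The canonical LAMB2 transcript, with 86 of 5692 bases of its own, had 0 counts, so that the level of spliced LAMB2 mRNA was not measured. LAMB3, the beta 3 chain of epithelial basement membranes, was measured through ENST00000391911, with 6 and 14 counts in EtOH and 19 and 20 in HgCl2. Its log2 fold change of 1.10 had an interval that included 0 (-0.06 to 2.37). The 2 tested LAMB1 transcripts had between 3 and 11 counts in each column and were not called.

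Among the alpha chains LAMA2, the chain of the laminin of muscle and nerve, had 15 counts in both EtOH columns and 3 in both HgCl2 columns on ENST00000498257. It was called lower with a log2 fold change of -2.14 and a wide interval (-4.61 to -0.36). In the later annotation release used here it has 34 bases of its own, in intron 56. Which bases gave its counts under the annotation of the authors was not tested. In all, 0 of 7 tested laminin transcripts were called higher and 2 lower, with a median log2 fold change of -0.21.

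Collagens made up the largest family by genes and a small one by counts. Their sum was 185 and 208 counts in EtOH and 189 and 177 in HgCl2. Of 44 genes, 15 had a count and 3 could be tested, and of 4 tested transcripts 1 was called higher and 0 lower. Of these 4, 1 passed the FPKM limit in both groups and 2 passed in HgCl2 alone, so that the limit sets this tally, and the collagens lower without the limit are given after the families. The best counted of them had a mean FPKM of 2.32 in EtOH and 2.56 in HgCl2, far under that of LAMC1 or ITGA4.

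COL27A1, a fibril-forming collagen best known from cartilage, held the most collagen counts. Its canonical transcript ENST00000356083 (chr9:114155537-114312511, plus strand) had 95 and 104 counts in EtOH and 94 and 82 in HgCl2. The columns of the groups nearly overlapped, and the log2 fold change was -0.03 (-0.46 to 0.39). Of its 7813 bases, 1598 were its own.

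COL4A3 encodes the alpha 3 chain of type IV collagen, which is found in the basement membranes of kidney and lung. Its canonical transcript ENST00000396578 (chr2:227164624-227314792, plus strand) had 12 and 14 counts in EtOH and 64 in both HgCl2 columns. The log2 fold change was 2.43 (1.57 to 3.43). Mean FPKM levels were 0.29 in EtOH and 1.80 in HgCl2, so that it passed the limit in HgCl2 alone. Its 2964 bases of its own are spread over coding sequence (2271 bases) and both UTRs, so that the counts can come from spliced mRNA. A minor transcript of the gene, ENST00000468753, had 4 and 7 counts in EtOH and 0 in HgCl2 and was not called.

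COL4A4 encodes the alpha 4 chain, which assembles with the alpha 3 chain, and its start site lies 419 bases from that of COL4A3 on the opposite strand. Its canonical transcript ENST00000396625 was under the FPKM limit, with 21 and 23 counts in EtOH and 7 and 6 in HgCl2. Fitted without that limit, its log2 fold change was -1.46 (-3.0 to -0.17). The values of these neighbouring genes thus lay in opposite directions, each at low counts. COL5A2, a chain of the fibrillar type V collagen, had 2 and 1 counts in EtOH and 7 in both HgCl2 columns on ENST00000649966, which was not called.

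The integrin alpha chains, which carry most of the ligand specificity of the receptor, gave equal sums in both groups. The sums were 2623 and 2646 counts in EtOH and 2631 and 2640 in HgCl2. Of 14 tested transcripts of 8 genes, 4 were called higher and 2 lower, with a median log2 fold change of 0.22, and each call was on a transcript whose own bases lie mostly in an intron. The canonical transcripts that could be tested, those of ITGA4 and ITGA2, were not called.

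ITGA4, the alpha 4 chain that binds fibronectin and VCAM1, was the best counted integrin. Its canonical transcript ENST00000397033 (chr2:181457386-181538940, plus strand) had 1794 and 1824 counts in EtOH and 1629 and 1683 in HgCl2. After normalization this left a log2 fold change of 0.02 (-0.08 to 0.11), and the mean FPKM was 48.6 and 55.5. ITGA2, the alpha chain of a collagen receptor, had 422 and 412 counts in EtOH and 512 and 500 in HgCl2 on ENST00000296585 (chr5:52989352-53094779, plus strand). Its log2 fold change was 0.42 (0.23 to 0.61), an interval wholly above 0, but the value did not reach the fold asked of a call. All 3945 of its own bases lie in the 3′ UTR.

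ITGA4 also had 2 retained-intron transcripts that lay in opposite directions. ENST00000465522 had 13 and 24 counts in EtOH and 63 and 61 in HgCl2, a log2 fold change of 1.88 (1.12 to 2.72). Its 317 own bases are the start of intron 10. ENST00000476089 had 14 and 13 counts in EtOH and 0 in both HgCl2 columns, at least 4.07-fold lower against a floor of 3 counts over the group, and its own bases are the start of intron 2. Both introns belong to the same gene, whose spliced transcript differed by little.

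ITGA6 encodes the alpha 6 chain, a laminin receptor that pairs with beta 1 or with beta 4 in hemidesmosomes. Its canonical transcript is not among those listed, and its tested transcripts were 2 retained introns, with their own bases in intron 20. ENST00000469534 had 34 and 32 counts in EtOH and 129 and 108 in HgCl2, a log2 fold change of 1.98 (1.42 to 2.59). ENST00000470259 had 30 and 34 counts in EtOH and 65 and 55 in HgCl2, a log2 fold change of 1.05 (0.41 to 1.72). Both transcripts thus had higher counts in HgCl2, toward opposite ends of an intron of 1365 bases. A protein-coding transcript of the gene, ENST00000409080, had 8 and 9 counts in EtOH and 4 and 3 in HgCl2 under the FPKM limit, a log2 fold change of -0.97 (-3.32 to 0.94) in the fit without it, and has no base of its own. The call of ENST00000470259 was close to the limit and was lost without EtOH replicate 1 (0.96) and without HgCl2 replicate 1 (0.93).

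The own bases of the ITGA6 transcript ENST00000469534 (chr2:172489659-172489928, plus strand) and the first 120 own bases of the ITGA4 transcript ENST00000465522 (chr2:181485993-181486112, plus strand, GRCh38) are shown because no other listed transcript covers them. Capitals mark the first 6 bases of the intron, which form the splice donor side. Both stretches thus begin at an exon to intron border and run into sequence that splicing removes.
ITGA6 ENST00000469534: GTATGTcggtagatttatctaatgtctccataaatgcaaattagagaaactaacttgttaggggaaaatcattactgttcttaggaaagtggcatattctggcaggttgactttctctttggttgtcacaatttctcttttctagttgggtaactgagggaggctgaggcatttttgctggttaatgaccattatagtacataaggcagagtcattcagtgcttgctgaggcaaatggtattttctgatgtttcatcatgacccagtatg
ITGA4 ENST00000465522: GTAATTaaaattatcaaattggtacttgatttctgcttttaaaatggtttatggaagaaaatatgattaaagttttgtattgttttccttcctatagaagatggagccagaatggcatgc

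ITGA1, the alpha chain of another collagen receptor, had 7 and 10 counts in EtOH and 50 and 39 in HgCl2 on ENST00000504669, a retained-intron transcript with most of its own bases in intron 11. It was called higher with a log2 fold change of 2.51 (1.46 to 3.79), with a mean FPKM of 0.25 in EtOH and 1.61 in HgCl2, and so passed the limit in HgCl2 alone. The canonical ITGA1 transcript ENST00000282588, with 2718 own bases in the 3′ UTR, had 8 and 6 counts in EtOH and 4 and 5 in HgCl2. In the fit without the limit its log2 fold change was -0.35 (-2.45 to 1.56). The higher counts were seen on the intron, and these few counts cannot tell whether the spliced transcript differed. ITGAV, the alpha chain shared by the RGD-binding receptors, had 12 and 6 counts in EtOH and 0 in both HgCl2 columns on ENST00000430709. This is at least 2.72-fold lower, and the transcript is named although it falls outside the naming rule, after its values were seen. Its 356 own bases lie in intron 28. The canonical ITGAV transcript, with 28 of 7039 bases of its own, had 0 counts, so that the level of spliced ITGAV mRNA was not measured.

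ITGA3, the alpha chain of a laminin receptor, had 164 and 158 counts in EtOH and 104 and 115 in HgCl2 on ENST00000506437, whose own bases lie in intron 23. Its log2 fold change was -0.41 (-0.78 to -0.05) and it was not called. ITGA10, a chondrocyte collagen receptor chain, had 32 counts in both EtOH columns and 18 and 17 in HgCl2 on ENST00000468261, a log2 fold change of -0.72 (-1.66 to 0.16). The remaining tested alpha chain transcripts, of ITGA3, ITGA10 and ITGAE, had between 0 and 29 counts in each column and were not called.

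The integrin beta chains, which connect the receptor to the cytoskeleton, had lower counts in HgCl2. Their sum was 615 and 586 counts in EtOH and 305 and 296 in HgCl2, and ITGB5 made up most of it. ITGB5 encodes the beta 5 chain, which pairs with ITGAV in a receptor for vitronectin. Its canonical transcript ENST00000296181 (chr3:124761948-124887365, minus strand) had 435 and 396 counts in EtOH and 161 and 151 in HgCl2. The log2 fold change was -1.27 (-1.54 to -1.0), with mean FPKM levels of 17.0 in EtOH and 7.99 in HgCl2. The 1435 own bases of this transcript, of 4440, lie in the 3′ UTR (1000 bases), the 5′ UTR (365) and the coding sequence (70). Of the 616 transcripts with 300 to 500 counts in EtOH, the HgCl2 mean had a 5th percentile of 165 and a 95th of 656, so ITGB5, with a mean of 156 counts in HgCl2, was below the 5th percentile.

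ITGB5 was also called in the other direction, on a minor transcript. ENST00000476988, a transcript without a defined coding sequence, had 1 count in both EtOH columns and 21 and 26 in HgCl2, a log2 fold change of 4.53 (2.08 to 10.1). Its 144 own bases lie inside intron 5 of the gene (chr3:124832877-124833020, minus strand, GRCh38), away from both ends of the intron. They are printed to show where the counts opposite to those of the canonical transcript lie, with no base in capitals.
ITGB5 ENST00000476988: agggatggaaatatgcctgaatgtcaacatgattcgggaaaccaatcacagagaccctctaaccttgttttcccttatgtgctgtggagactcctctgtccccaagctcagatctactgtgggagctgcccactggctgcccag

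ITGB3, the beta chain of a vitronectin and fibrinogen receptor, had 105 counts in both EtOH columns and 58 and 56 in HgCl2 on its canonical transcript ENST00000559488 (chr17:47253827-47313743, plus strand). Its log2 fold change of -0.74 (-1.23 to -0.26) did not reach the fold asked of a call. ITGB1, the common partner of most alpha chains, was measured through 4 minor transcripts. The best counted, ENST00000609742, had 31 and 30 counts in EtOH and 22 and 20 in HgCl2, a log2 fold change of -0.39 (-1.27 to 0.45). The other three ITGB1 transcripts had between 4 and 24 counts in each column, and none of the 4 was called. Of 7 tested beta chain transcripts, 1 was called higher and 1 lower, with a median log2 fold change of -0.39.

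**Figure D3:**
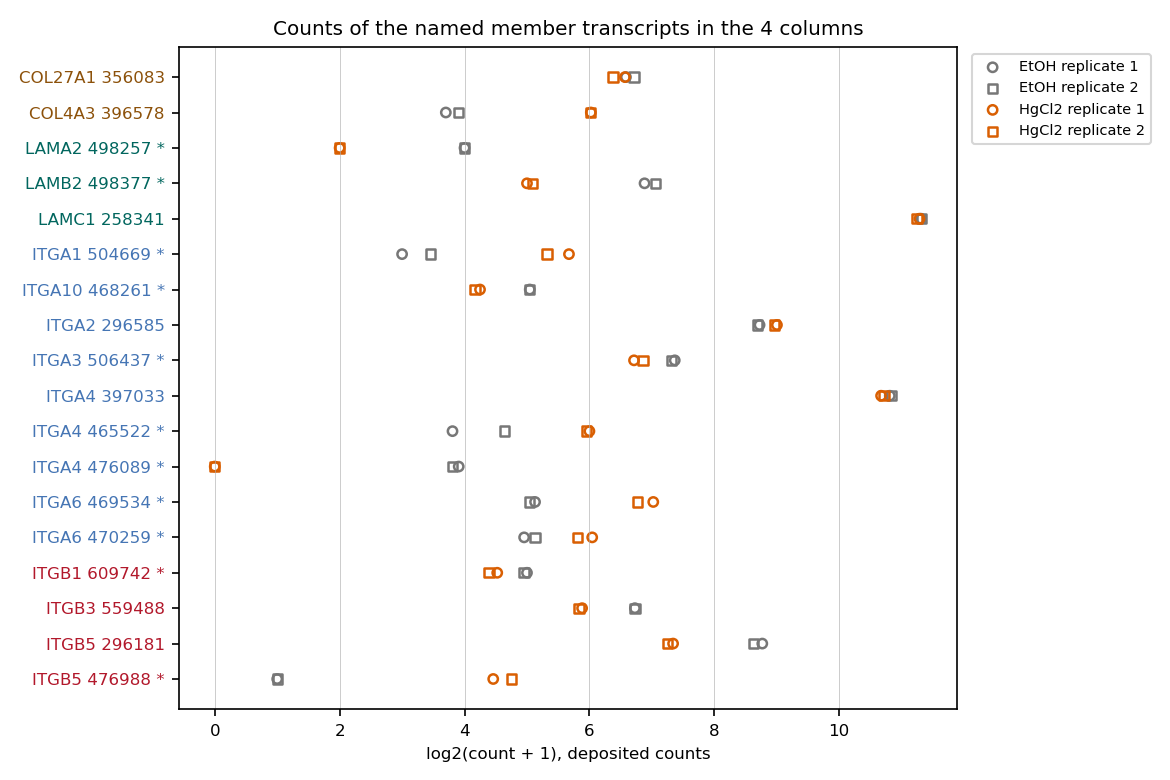
Deposited counts of the 18 named member transcripts in each of the 4 columns, as log2 of the count plus 1, in grey for EtOH and orange for HgCl2. Labels give the gene and the last 6 digits of the transcript, an asterisk marks transcripts that are not canonical, and in most lines the columns of a group lie close together, the EtOH columns of ITGA4 ENST00000465522 (13 and 24 counts) being farther apart.

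Fibronectin could not be tested. FN1 had 9 and 13 counts in EtOH and 15 and 17 in HgCl2 over 27 listed transcripts, most of them on the retained-intron transcript ENST00000492816 with 6, 12, 13 and 16. The canonical FN1 transcript has no base of its own and was at 0, so that these values say nothing of the level of FN1 mRNA. In all, 60 member transcripts had a count but stayed under the FPKM limit, with a highest group mean of 22 counts, and 14 of them had a group mean above 3 counts. Fitted without the limit, 0 of the 60 were called higher and 3 lower, against 0.717% higher and 2.94% lower of all 22182 counted transcripts under the limit. These 3 are collagens named after their values were seen. They are COL4A4 (above), COL1A1 and COL12A1. COL1A1, the main chain of type I collagen, had 13 and 18 counts in EtOH and 3 and 4 in HgCl2 (log2 fold change -1.83, -4.07 to -0.15). COL12A1, a fibril-associated collagen, had 8 and 10 counts in EtOH and 1 in both HgCl2 columns (log2 fold change -2.75, -8.34 to -0.04). ITGB8, the beta 8 chain, had 15 and 12 counts in EtOH and 7 and 5 in HgCl2 and was not called.

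**Figure D4:**
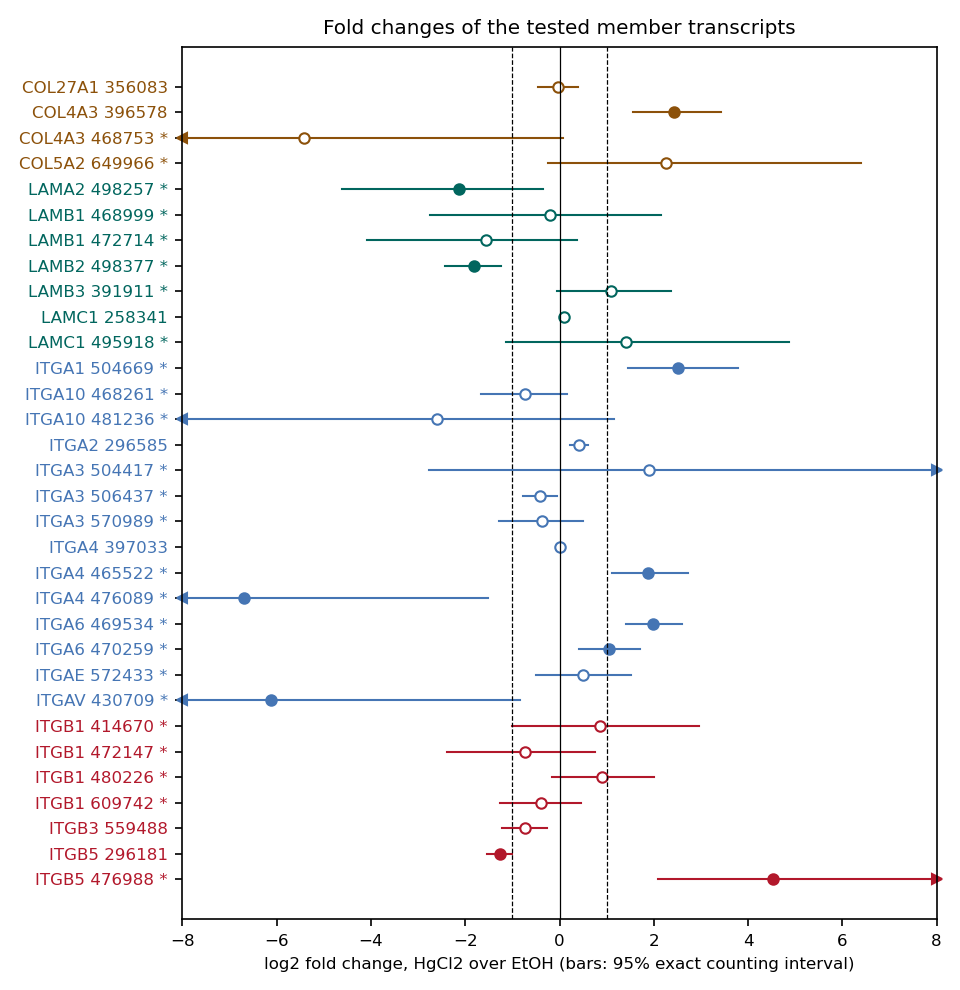
Log2 fold change of HgCl2 over EtOH for the 32 tested member transcripts with exact 95% counting intervals, filled points marking called transcripts, dashed lines the limits at 1 and -1, an asterisk transcripts that are not canonical, and arrowheads intervals that run past the axis. Points lie on both sides of 0 in each family, and narrow intervals belong to LAMC1, ITGA2, ITGA4 and ITGB5.

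To see what the called members had in common, they were set beside the annotation. The 11 called transcripts belong to 8 genes, and ITGA4 and ITGB5 were called in both directions. Of the 7 canonical transcripts tested, 2 were called, COL4A3 higher and ITGB5 lower. The other 9 called transcripts were not canonical, and all of these 9 have own bases in an intron of the canonical transcript, as have 23 of the 25 tested transcripts that are not canonical. Of 12 retained-intron transcripts among the members, 4 were called higher (33.3%) and 2 lower (16.7%). For all tested retained-intron transcripts the shares were 20.6% and 16.1%. Of 15 protein-coding transcripts among the members, 1 was called higher (6.67%) and 3 lower (20%), against 12.1% and 15.2% of all protein-coding transcripts tested. In both classes the shares of members differ from those of the table by 1 or 2 transcripts.

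By counts, the canonical transcripts of 4 genes, LAMC1, ITGA4, ITGA2 and ITGB5, held 5191.5 of a mean of 6167 member counts in EtOH and 4781.5 of 5668.5 in HgCl2. Of these 4, ITGA2 had more counts in HgCl2 and the other three had fewer, before normalization.

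To place the members beside the genes they work with, 3 lists were followed. For the enzymes and helpers of collagen biosynthesis, such as prolyl and lysyl hydroxylases, chaperones and lysyl oxidases, 12 of 32 genes could be tested. Of their 17 transcripts 2 were called higher and 5 lower, with a median log2 fold change of -0.20. For other matrix proteins and matrix-cleaving enzymes, 8 of 38 genes could be tested, and 3 of 14 transcripts were called higher and 2 lower (median -0.05). For adhesion genes linked to integrins, such as talins, focal adhesion kinase, tetraspanins and syndecans, 18 of 47 genes could be tested, and 7 of 36 transcripts were called higher and 8 lower (median -0.31). All 3 lists thus held calls in both directions, as the background of 15.5% higher and 17.0% lower does.

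The called transcripts of these lists with at least 100 counts in a group, of SPARC, THBS1 and SDC2, were lower in HgCl2. Calls at lower counts went in both directions. At a mean of 50 counts or more, 0 of 4 collagen biosynthesis transcripts were called. There, 1 of 8 matrix transcripts was higher and 2 lower, and 0 of 9 adhesion transcripts were higher and 2 lower. The background was 11.7% higher and 6.17% lower. Uncalled transcripts lay on both sides, such as CD47 ENST00000471694 (0.84) and ADAMTS3 ENST00000286657 (-0.80). SPARC, a secreted protein that binds collagen, had 212 and 203 counts in EtOH and 26 and 25 in HgCl2 on ENST00000231061, a log2 fold change of -2.88 (-3.54 to -2.28). THBS1, a matrix glycoprotein that binds integrins and CD47, had 265 and 261 counts in EtOH and 43 and 60 in HgCl2 on ENST00000260356, a log2 fold change of -2.21 (-2.67 to -1.77). SDC2, a heparan sulfate proteoglycan of the cell surface that acts beside integrins, had 576 and 562 counts in EtOH and 224 and 239 in HgCl2 on ENST00000302190, a log2 fold change of -1.15 (-1.38 to -0.93). The columns of a group count as 1 sample, so that their lack of overlap for these genes adds no support. In the other direction, and named after their values were seen, MMP1, a collagenase, had 4 and 8 counts in EtOH and 62 and 72 in HgCl2 on ENST00000315274 (log2 fold change 3.60, 2.43 to 5.12). FBN2, a microfibril protein, had 5 and 10 counts in EtOH and 57 and 55 in HgCl2 on ENST00000262464 (log2 fold change 3.02, 1.94 to 4.37). Both passed the FPKM limit in HgCl2 alone.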

How the data were processed

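Poly-A RNA of H1299 cells was sequenced in 2 groups with 2 columns each. According to the paper, the authors trimmed reads with Trim Galore, used STAR 2.5.4b for alignment to GRCh38 and an Ensembl annotation, and counted per transcript with Rsubread, whose options are not given in the sources used here. They deposited these counts without normalization. From the same counts the authors computed FPKM with DESeq2 1.26.0 (median-ratio scaling) and deposited them too.

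Identifiers were matched to GENCODE 44 on GRCh38, a later release than the authors used (98.3% of 227368 transcripts, with 99.8% of the counts), and own bases, introns and sequences come from it and the same genome build. Fold changes come from edgeR 4.0.16 under R 4.3.3 (glmQLFit and glmQLFTest after TMM). The 17547 transcripts fitted had a mean FPKM over 1 in either group or both. The step was tested on simulated data. A call asked for a log2 fold change of 1 or more in size and an exact (Clopper-Pearson) 95% interval wholly on the same side of 0. Columns of a group were compared and counted as 1 sample. Total counts per column (4720978 to 5053120) set the precision of the intervals.

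Members, gene lists and markers were chosen with earlier results of these data known. Named were tested member transcripts that averaged 30 counts or more in a group, called ones with at least 10 counts, and called transcripts of the 3 lists with at least 100 counts. Alternatives changed the filter, the normalization, the tool (DESeq2 1.42.0 or limma 3.58.1), the prior count, the replicate block, and the call rule, summed counts over genes, and omitted 1 column at a time. An item that the rule covers is not reported here and enters no count over the members. Other assays of the study were not analysed here.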

Additional observations from a re-analysis of the deposited data

How the results depend on the processing

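Of 230 values of the 18 named member transcripts under alternatives, 226 kept their call or stayed uncalled, and 0 calls reversed. The columns of a group count as 1 sample, so a call kept with 1 column omitted or with the replicate block is little check. The 230 values include these settings and the transcripts never called. They leave out ITGA1 ENST00000504669, ITGA4 ENST00000476089, ITGB5 ENST00000476988 and LAMA2 ENST00000498257 in the setting of at least 10 counts in every column. These called transcripts did not pass that filter, so their calls could not be checked there. The sign changed in 11 values, all of COL27A1, LAMC1 and ITGA4 ENST00000397033, which lie near 0 and were never called. The 4 lost calls concern ITGA6 ENST00000470259, not called with at least 10 counts in every column (0.87), with filterByExpr (0.98), without EtOH replicate 1 (0.96) or without HgCl2 replicate 1 (0.93). With at least 10 counts in every column, 16 member transcripts remained and 3 were called higher and 2 lower (all transcripts 11.0% and 12.5%). With no filter beyond 1 count, 7 of 92 were called higher and 8 lower (all transcripts 8.17% and 7.99%), and the median log2 fold change was -0.47 against -0.83 for all transcripts. Leaving out 1 column gave 5 to 8 calls higher and 5 to 6 lower, with medians of -0.05 to 0.03 against -0.01 with all columns. Summed per gene, 4 of 19 genes were called higher and 4 lower (all genes 12% and 17.6%). The deposited FPKM scale moved all fold changes up by 0.18 and gave 8 and 5 calls (all transcripts 18.3% and 13.7%). The median was then 0.17. With limma on log2(FPKM + 1), 60.5% of all calls were higher, against 47.7% with edgeR. Under limma 6 and 5 members were called (all transcripts 15.1% and 9.84%). The replicate block gave 6 and 5 calls, and same-numbered columns of the groups had deviations correlated at 0.02 over 8790 transcripts. The deviations within a group were below sampling noise, so this correlation cannot show whether the numbers mark a pair. The samples were not taken as paired. Of the 15 collagen genes with a count, 12 were under the FPKM limit, and the parts of depth and of few own bases in this were not tested.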
